A study of Rattus norvegicus with 2 samples.

Results

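The transcripts described here are those of 10 regulators of muscle gene expression: the myogenic regulatory factors Myod1, Myog, Myf5 and Myf6, the MEF2 factors Mef2a, Mef2c and Mef2d, and the inhibitors Id1, Id2 and Id3. They were chosen by gene symbol among the array's probe sets annotated with a single gene. Of the 10 genes, 9 had at least 1 such probe set, 15 probe sets in all, out of 14217 genes and 20826 probe sets. The signal of Myf5 was not analysed here, only its promoter sequence. The data came from the adductor of the thigh of male Lewis rats weighing 275 g. The stimulated sample was taken from the left limb 24 hours after 100 pricks over a 10 mm square of the adductor region with a steel needle 0.14 mm thick. The control sample came from the right limb, which was left intact. The ages and the number of animals are not given in the labels, nor whether both samples came from the same rat. With 1 array for each limb, no difference below was tested, and each direction given holds for these 2 samples alone.

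Myogenic regulatory factors are basic helix-loop-helix (bHLH) proteins that pair with E proteins, bind the E-box in muscle genes and switch on the muscle programme. Myod1 and Myf5 act early, in committed myoblasts, Myog is needed for their differentiation into fibres, and Myf6 is the member most abundant in mature muscle. MEF2 factors bind an A/T-rich site and act together with the myogenic factors, while ID proteins lack the basic DNA-binding region and hold E proteins in inactive pairs. In adult muscle, ID genes are also expressed by endothelial and other non-muscle cells, and BMP signalling through SMAD proteins is a main inducer of them.

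The largest differences among the members went opposite ways, lower for ID genes and higher for myogenic factors. Id1 was 3.36-fold and Id3 2.31-fold lower in the stimulated limb. Myog was 1.99-fold and Myf6 1.41-fold higher, while Myod1 and the brightest probe sets of Mef2a and Mef2c had nearly the same signal in both limbs. Of the 9 genes, 2 were at least 2-fold lower, against 1.43% of 9956 measured genes, and 0 were at least 2-fold higher, against 1.43%. At 1.5-fold, 1 member was higher, against 6.59% of all genes, and 2 were lower, against 6.94%. In all, 5 of the 9 lay below a log2 ratio of 0, against 47.7% of all genes, and 4 above it, against 52.3%. The median log2 ratio was -0.02 over the members and 0.02 over all measured genes.

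A gene was called measured where its signal reached a floor of 19.8 on at least 1 array, the floor being the median signal of both arrays. All 15 member probe sets were above it on both arrays. The only spread at hand is that between probe sets of the same gene. Across the 2174 genes for which 2 or more probe sets exceeded the floor in both limbs, the log2 ratio of 1 probe set had an SD of 0.31. It was 0.25 in the 725 brightest of them, whose mean signals began at 153, and the probe sets standing for the 9 members all lay in that range. This spread holds no variation between limbs or animals. The stimulated array had 48.9% of probe sets at or above the floor and the control array 51.1%. The beta-actin control probes, a gauge of RNA integrity, gave a 3'/5' ratio of 2.43 on the stimulated array against 2.26 on the control array. The GAPDH control probes gave 1.12 on the stimulated array against 1.08 on the control array. The foreign transcripts spiked into each hybridisation were read by 18 probe sets, of which 18 were lower on the stimulated array (median log2 ratio -0.38). Scaling to them moved the median of all genes to 0.39. Each direction is therefore relative to the scaling used, here that of the authors, under which this median was 0.02.

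**Figure D1:**
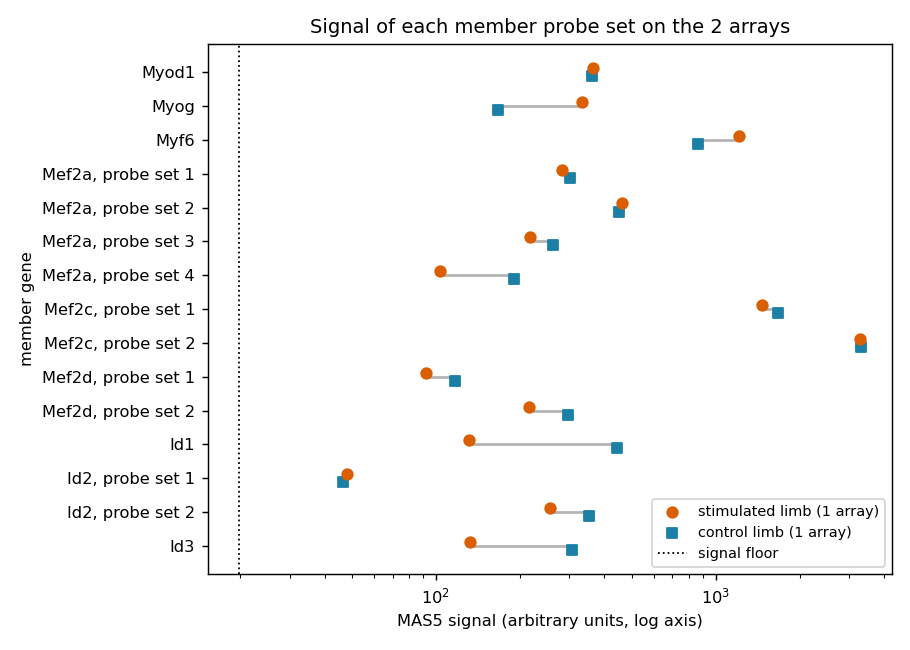
MAS5 signal in arbitrary units on a log axis for each of the 15 member probe sets, with the stimulated array as circles, the control array as squares and the signal floor as a dotted line. The pairs of Id1 and Id3 lie far apart with the control signal higher, that of Myog lies apart with the stimulated signal higher, and those of Myod1 and of the brightest Mef2c probe set nearly coincide.

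Among the myogenic factors, Myog (Entrez gene 29148, myogenin) showed the largest difference. It gave a signal of 332 in the stimulated limb against 167 in the control limb, a log2 ratio of 0.99. The probe set SD was 0.25 in the 725 brightest genes with several probe sets. It ranked 145 from the highest of 9956 genes and lay just outside the 142 that reached 2-fold. Myf6 (Entrez gene 25714, also called MRF4) gave 1212 in the stimulated limb and 861 in the control limb, a log2 ratio of 0.49, and ranked 930 from the highest. Myod1 (Entrez gene 337868) gave 363 in the stimulated limb and 361 in the control limb, a log2 ratio of 0.0071. The later-acting factors were thus higher in the stimulated sample while Myod1 was at the same level within the probe set spread. The log2 ratio of Myog exceeded that of Myod1 by 0.99 and that of Myf6 by 0.50. Each of these 3 genes was read by 1 probe set, so none has a second reading on the same arrays.

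The promoters of Myog and Myf6 are shown because these are the members with the highest ratios and both hold a site of the partner family. They are the 250 bases before the start in RefSeq's rat assembly GRCr8, Myog at chr13:48297226-48297475 on the plus strand and Myf6 at chr7:44701314-44701563 on the minus strand. Capitals mark each E-box (CANNTG) and each MEF2 site, searched as CTA, then a run of 4 bases each A or T, then TA, on both strands.
Myog: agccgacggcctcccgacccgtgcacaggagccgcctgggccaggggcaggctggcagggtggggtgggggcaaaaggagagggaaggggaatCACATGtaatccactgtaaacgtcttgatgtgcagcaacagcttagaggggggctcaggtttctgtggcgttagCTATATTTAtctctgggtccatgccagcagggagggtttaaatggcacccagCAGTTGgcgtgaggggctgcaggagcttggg
Myf6: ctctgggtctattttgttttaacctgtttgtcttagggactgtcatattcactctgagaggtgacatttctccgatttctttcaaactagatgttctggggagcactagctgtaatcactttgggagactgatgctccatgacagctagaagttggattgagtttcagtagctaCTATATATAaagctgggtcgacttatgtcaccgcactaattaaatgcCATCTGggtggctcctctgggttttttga
The Myog window held a MEF2 site, CTATATTTA, from base -83 to -75 relative to the start, and E-boxes at -157 (CACATG) and -31 (CAGTTG). The Myf6 window held a MEF2 site, CTATATATA, from -76 to -68 and an E-box, CATCTG, at -29. Such a MEF2 site was found in 3.38% of the 33469 promoter windows of that table and a CANNTG E-box in 65.5%. Among the 8 members with a window, 3 held a MEF2 site (Myog, Myf6 and Mef2a) and 4 an E-box (Myog, Myf6, Id1 and Id2). The Mef2a site is a pair of overlapping matches, and its window lies inside the gene, downstream of the farthest annotated start. A match describes letters in a window and was not tested as a binding site in these data.

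Among the MEF2 factors, Mef2d was lower in the stimulated limb, and the brightest probe sets of Mef2a and Mef2c were near 0. Mef2c, the brightest member, had signals of 3274 in the stimulated and 3313 in the control limb on its brighter probe set, a log2 ratio of -0.02, and of 1459 in the stimulated and 1670 in the control limb on the other, a ratio of -0.19. Mef2d was lower on both of its probe sets, with 214 in the stimulated and 297 in the control limb on the brighter (log2 ratio -0.47) and 92.4 in the stimulated and 117 in the control limb on the dimmer (-0.34). These probe sets of Mef2d differ by 0.13 on the log2 scale, and the larger difference is 1.38-fold. Mef2d ranked 1009 from the lowest of all genes.

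Mef2a was read by 4 probe sets that did not agree. The brightest had signals of 463 in the stimulated and 451 in the control limb, a log2 ratio of 0.04. A second had 282 in the stimulated and 302 in the control limb, a ratio of -0.10. The other pair was lower, with 216 in the stimulated and 262 in the control limb (-0.28) and with 103 in the stimulated and 191 in the control limb (-0.89). The ratios of Mef2a spanned 0.93 on the log2 scale, the widest span of the 4 members with several probe sets. The dimmest, with the lowest ratio, has no accession in the annotation, and whether it reads the same transcripts was not tested. The median over the 4 was -0.19, which was under the probe set SD.

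**Figure D2:**
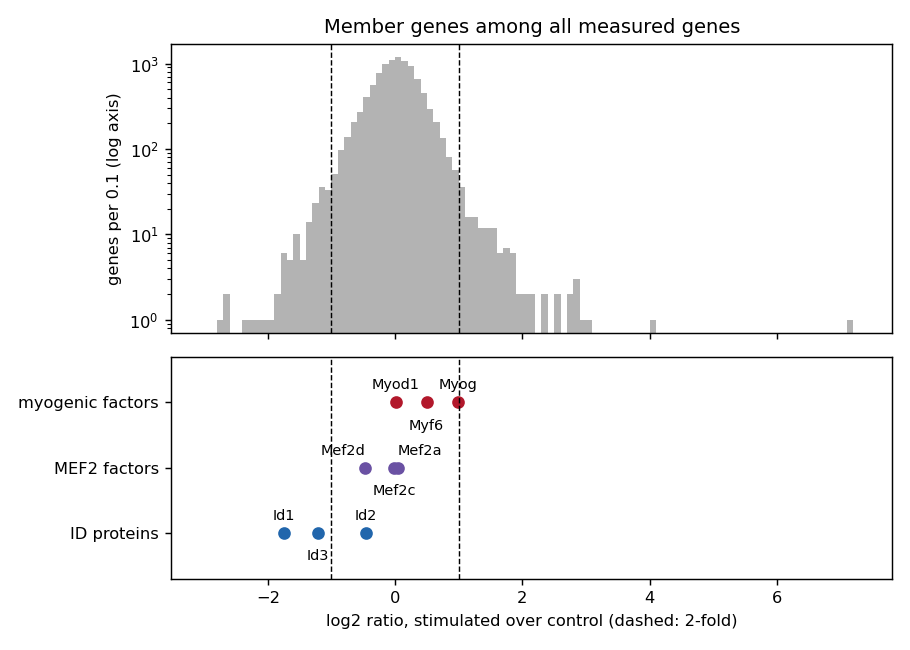
The upper panel counts all 9956 measured genes by log2 ratio of stimulated over control in steps of 0.1, on a log axis. The lower panel places each of the 9 member genes on the same axis by family, with Id1 and Id3 below the dashed 2-fold line, Myog just inside the upper one, Mef2a, Mef2c and Myod1 near 0, and Mef2d and Id2 lower at -0.47 and -0.46.

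The ID genes differed most among the families. Id1 (Entrez gene 25261) gave a signal of 132 in the stimulated limb against 442 in the control limb, a log2 ratio of -1.75, and ranked 13 from the lowest of all 9956 genes. Id3 (Entrez gene 25585) had 132 in the stimulated limb and 306 in the control limb, a log2 ratio of -1.21, and ranked 69 from the lowest. Both differences are several times the SD of 0.25 in the 725 brightest genes with several probe sets. They are also several times the SD of 0.32 in the 724 genes of middle brightness. Each of these genes was read by 1 probe set, of the kind designed to read several transcripts of the same gene. Id2 (Entrez gene 25587) had 255 in the stimulated and 352 in the control limb on its brighter probe set, a log2 ratio of -0.46. On its dimmer one it had 48.2 in the stimulated and 46.7 in the control limb, a ratio of 0.05. Id2 was thus lower on its brighter probe set, by an amount like that of Mef2d, and near 0 on the dimmer, with a median of -0.21. The log2 ratio of Id1 was 1.29 below that of Id2, taken from its brighter probe set, and that of Id3 was 0.75 below it. In these samples of whole muscle, fewer cells of a type and less RNA per cell cannot be told apart.

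The promoters of Id1 and Id3 are given for the members with the lowest ratios, cut at the gene's farthest annotated start. Id1 is chr3:161671314-161671524 and Id3 chr5:153656041-153656252, both on the plus strand of GRCr8, and neither stretch holds a CANNTG E-box or a MEF2 site, so no letter is in capitals.
Id1: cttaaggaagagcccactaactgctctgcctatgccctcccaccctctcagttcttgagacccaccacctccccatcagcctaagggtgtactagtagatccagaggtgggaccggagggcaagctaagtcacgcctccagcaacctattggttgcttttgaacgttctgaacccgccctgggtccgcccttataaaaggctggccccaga
Id3: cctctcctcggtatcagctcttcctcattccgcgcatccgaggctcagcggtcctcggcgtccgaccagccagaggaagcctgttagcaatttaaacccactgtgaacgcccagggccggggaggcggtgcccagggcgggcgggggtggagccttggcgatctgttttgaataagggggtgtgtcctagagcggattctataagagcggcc
The 250-base window of Id1 did hold an E-box, CAACTG, at -9, within the transcribed stretch that is not shown. Of further motifs searched on both strands, GGCGCC was found in 0 of the 8 member windows and in 8.69% of all windows, CAGAC in 2 (Myf5 and Mef2a) and in 42.9%, the E-box CAGCTG, a form of CANNTG, in 1 (Id2) and in 12.0%, and the serum response element in 0 and in 1.5%.

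Genes listed around BMP signalling and ID expression went mostly below 0, by small amounts on their brightest probe sets. Of 26 measured genes listed as BMP, SMAD and other regulators of Id genes, 20 were below 0. In that list, 2 passed 2-fold downward and 0 upward, with a median log2 ratio of -0.10. Not every gene of the list acts on Id genes. The immediate early transcription factor Egr1 had a signal of 67.9 in the stimulated and 211 in the control limb, 3.10-fold lower. Bmp1, a procollagen protease despite its name, was 2.69-fold lower with 20.2 in the stimulated limb and 54.4 in the control limb, but its second probe set had a ratio of -0.22. The BMP antagonist Nog was 1.66-fold lower, and the ligand Bmp2 1.57-fold higher at low signals of 32.5 in the stimulated and 20.7 in the control limb. Fst had a log2 ratio of -0.03 on its brightest probe set but of 2.02 on the other. Acvr1 had 0.08 on its brightest, with 0.02 and -0.91 on the others. The BMP signal transducers Smad1, Smad5 and Smad4 had log2 ratios of -0.25, -0.06 and -0.06, and the feedback inhibitors Smad6 and Smad7, themselves BMP targets, -0.12 and -0.05. The dimmer probe sets of these genes were lower, at -0.72 for Smad1, -0.44 for Smad4 and -1.02 for Smad7, and those of Smad5 gave -0.41 and -0.01. The Smad levels thus depend on the probe set read, whereas Id1 and Id3 had no second one. Bmp7 and Smad9 were below the floor on both arrays.

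Markers of endothelial cells, smooth muscle cells and adipocytes were mostly lower in the stimulated limb. Of 16 measured endothelial markers, 14 were below 0, 5 passed 2-fold downward and 0 upward, with a median log2 ratio of -0.66. Their signals summed to 1408 in the stimulated limb against 2393 in the control limb, a log2 ratio of -0.76, against -1.75 for Id1 and -1.21 for Id3. Plvap, a protein of endothelial diaphragms, was 3.62-fold lower, and Sox18, an endothelial transcription factor, 2.91-fold lower with 73.2 in the stimulated and 213 in the control limb. The VEGF receptor gene Flt1 was at least 2.22-fold lower (-0.63 on its second probe set) and the endothelial surface gene Ecscr 2.06-fold lower. Cldn5 and Ptprb, also endothelial, had log2 ratios of 0.06 and 0.0093, with -0.69 on the second probe set of Ptprb. Smooth muscle and pericyte markers were below 0 for 10 of 12, with a median of -0.35 and 1 at least 2-fold lower, Acta2 (2.28-fold). Abcc9 had a log2 ratio of -0.74 and Mcam of -0.69, with second probe sets at -0.51 and -1.31. Their signals summed to 8750 in the stimulated limb against 10627 in the control limb, mostly from Des, an intermediate filament gene that skeletal fibres also express. Without Des, a choice made after seeing the data, the other 11 summed to 1434 in the stimulated limb against 2267 in the control limb, a log2 ratio of -0.66 in place of -0.28. Adipocyte markers were below 0 for 7 of 8, with 5 at least 2-fold lower. Their median was -1.58 (-0.83 under a floor at the 75th percentile, -1.13 under a pseudocount of 16). Cfd (4.26-fold lower) and the adipokine gene Adipoq (3.38-fold lower) led that list. Plin1 was at least 3.23-fold lower (-0.61 on its second probe set) and Pck1 at least 3.06-fold lower. Adipocyte signals summed to 1945 in the stimulated and 3668 in the control limb. The part of these cell types in the ID difference was not tested.

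**Figure D3:**
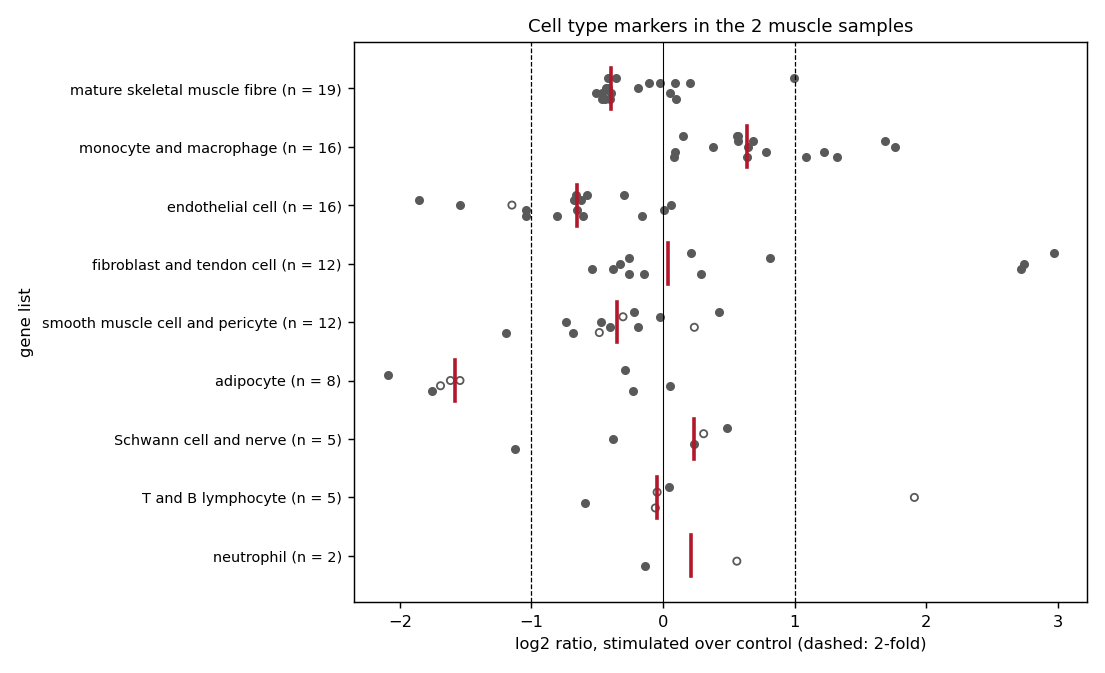
Log2 ratio of stimulated over control for the measured markers of 9 cell types, 1 point a gene, open where 1 array lay below the floor, with the list median as a red bar and 2-fold as dashed lines. Macrophage markers lie above 0 and most endothelial and adipocyte markers below it.

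The tissue label was checked against markers of mature fibres. All 19 with a probe set were above the floor on both arrays, among them Acta1, skeletal alpha-actin, with signals of 12095 in the stimulated and 16712 in the control limb. They had a median log2 ratio of -0.39, with 14 below 0 and 0 beyond 2-fold in either direction, and their signals summed to 132504 in the stimulated limb against 168828 in the control limb. That median was 0 with quantile normalization and -0.0092 with scaling to the spike-ins. Casq1, the calcium store protein of fast fibres, was 1.38-fold lower, and the parvalbumin gene Pvalb 1.42-fold lower. Myh2, a fast oxidative myosin, had 2010 in the stimulated and 1008 in the control limb, a log2 difference as large as that of Myog. Macrophage markers were above 0 for 16 of 16, with 5 past 2-fold upward, a median of 0.64 and a summed signal of 12084 in the stimulated and 7053 in the control limb. Lgals3 (3.39-fold), Tyrobp (3.22-fold), Cd53 (2.49-fold) and Ptprc (2.33-fold) led that list. Fibroblast and tendon markers went both ways, 6 above 0 and 6 below, with a median of 0.03. In that list, 3 passed 2-fold upward, the tendon genes Thbs4 (7.84-fold), Tnmd (6.69-fold) and Fmod (6.58-fold), and the list summed to 19207 in the stimulated and 21545 in the control limb. Few markers of other cells were measured, with medians of 0.23 over 5 Schwann cell genes, -0.05 over 5 lymphocyte genes and 0.21 over 2 neutrophil genes. The Schwann cell median turned to -0.38 with the floor at the 75th percentile, to -0.07 with it at the 25th and to -0.37 without suffixed probe sets. Mbp, a myelin gene, was 2.18-fold lower, with other probe sets at -0.37 and -0.74. Cd8a was at least 3.76-fold higher, with a second probe set at 1.14, and S100a9 had a log2 ratio of -0.14.

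The partners with which the myogenic factors pair showed no 2-fold difference. Of 6 measured E proteins and bHLH partners, 4 were above 0, 0 passed 2-fold in either direction and the median log2 ratio was 0.10. The E protein genes Tcf4 and Tcf12 had ratios of 0.04 (-0.40 on its second probe set) and 0.17, and Tcf3, which encodes E12 and E47, was below the floor on both arrays. Ldb1, an adaptor of LIM proteins, was 1.63-fold higher, with 113 in the stimulated and 69.2 in the control limb, while Lmo4, a LIM-only protein, was 1.16-fold lower, with other probe sets at -0.71 and -0.64. Mdfic had a ratio of 0.48 (0.13 on its second probe set) and Mdfi (I-mfa), an inhibitor of myogenic factors, was 1.16-fold lower, at signals under 32.0 on both arrays. Related factors outside the 10 members split evenly, 5 above 0 and 5 below, with a median of -0.05. Hes6, a bHLH protein of differentiating myoblasts in mouse, was 2.11-fold higher, with 69.0 in the stimulated and 32.7 in the control limb, and was the 1 gene of that list past 2-fold. Id4, the remaining ID gene, was 1.95-fold higher on its brightest probe set, with 101 in the stimulated and 51.5 in the control limb, but its other probe sets had ratios of -0.35, -0.21 and 0.23. Hes1, a Notch target, was 1.52-fold lower and Twist1, an inhibitor of myogenic factors, 1.43-fold lower.

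Factors known to act upstream of the myogenic genes were mostly near 0 on their brightest probe sets. Of 18 measured, 10 were above 0, 1 passed 2-fold upward and 0 downward, with a median of 0.09. The Krüppel-like factor Klf5 was 2.13-fold higher, with 52.8 in the stimulated and 24.8 in the control limb and with other probe sets at 0.71 and 0.77. Runx1, which is induced in denervated muscle, had a ratio of 0.50 on its brighter probe set and of 1.0 on the other. Eya2, a coactivator of homeodomain factors, was at least 1.64-fold higher with a control signal of 17.8, below the floor. The nuclear factor Nfic was 1.41-fold lower, with a second probe set at -0.93. Nfix, Srf and Tead1 had ratios of -0.07, -0.26 and 0.06 on their brightest probe sets. Their other probe sets were lower, at -1.23 for Nfix, -0.36 and -1.13 for Srf and -0.50 for Tead1. The myogenic regulators Six4, Eya1 and Tead4 had log2 ratios of 0.17, 0.11 and 0.19, all within the probe set SD.

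**Figure D4:**
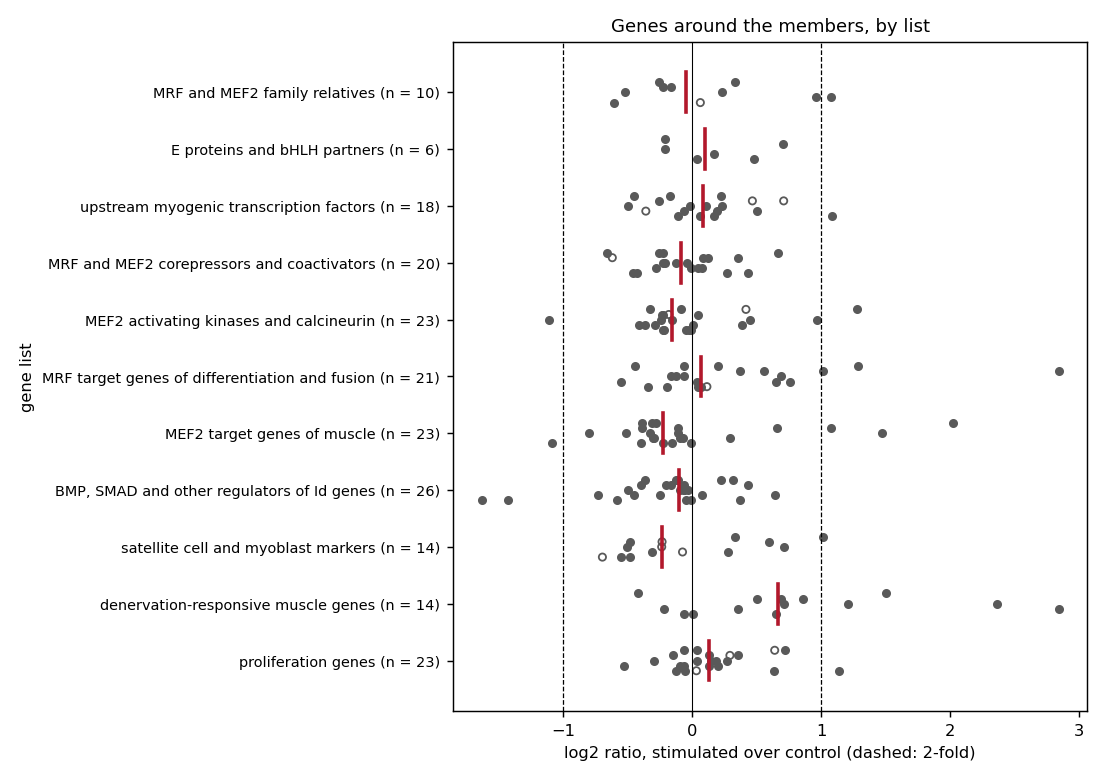
Log2 ratio of stimulated over control for the measured genes of 11 lists around the members, 1 point a gene, open where 1 array lay below the floor, with the list median as a red bar and 2-fold as dashed lines. The list of denervation-responsive genes has the highest median, 0.67, and the others have medians between -0.24 and 0.13.

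Target genes of the myogenic factors were higher in part. Of 21 measured, 13 were above 0 and 8 below, with a median of 0.06. In that list, 3 passed 2-fold upward, against 1.43% of all genes, and 0 downward. The signals of the list summed to 24517 in the stimulated limb against 29302 in the control limb, a log2 ratio of -0.26. Most of that sum came from the fibre genes Ckm and Des, with ratios of -0.44 and -0.19. Rb1 had a ratio of -0.34, Mybph of -0.16 and Chrnb1 of -0.13. Chrnd encodes the delta subunit of muscle's receptor for acetylcholine and is a target of Myog. It had 160 in the stimulated limb and 22.3, close to the floor, in the control limb, 7.18-fold higher. Casq2, the calsequestrin of slow fibres and heart, was 2.45-fold higher, with 272 in the stimulated and 111 in the control limb and a second probe set at 1.20. Itga7, a laminin receptor of muscle, was 2.02-fold higher on its brighter probe set, but the other had a ratio of 0.02. Myl4, an embryonic and atrial myosin light chain, was 1.70-fold higher. The receptor subunit gene Chrna1 had a ratio of 0.65, the cell cycle inhibitor Cdkn1a of 0.69 (-0.01 on its second probe set), Cdkn1c of 0.56, and the myoblast cadherin Cdh15 of -0.55. Jam2 had a ratio of -0.07 on its brightest probe set, but of -0.84, -1.03, -0.87 and -0.87 on the others. Lmod3 had 0.06 on its brightest and 0.67 on the other. Both developmental myosin heavy chains of the list were below the floor in both limbs. Myh3, the embryonic myosin, had signals of 1.21 in the stimulated and 5.15 in the control limb, and Myh8, the perinatal myosin, of 7.70 in the stimulated and 2.16 in the control limb. Chrng, the fetal receptor subunit, was also below it, with 4.10 in the stimulated and 2.81 in the control limb. Chrne, Musk and Tnnt2 were below the floor in both limbs too. Mymk (myomaker), needed for myoblast fusion, had 21.4 in the stimulated limb against 11.1 in the control limb, the second of these below the floor.

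Denervation-responsive genes, a group in which Myog itself is a known member, had a median log2 ratio of 0.67. Of 14 measured, 11 were above 0, 4 passed 2-fold upward and 0 downward. Besides Chrnd, which is in both lists, these were Sln (sarcolipin, 5.17-fold), Gadd45a, a growth arrest gene (2.83-fold, 705 in the stimulated and 249 in the control limb), and Tnfrsf12a, the TWEAK receptor (2.32-fold). The ubiquitin ligase Trim63 had a ratio of 0.86, and Fbxo32, another ligase of muscle atrophy, of -0.42. Hdac4, which in mouse links denervation to Myog, had a ratio of 0.36 at signals of 30.2 in the stimulated and 23.6 in the control limb. The median was 1.05 with scaling to the spike-ins, which lifted the median gene by 0.39. It was 0.47 under a pseudocount of 16, which also keeps genes below the floor. Musk, Chrng and Myh3 of this list were below the floor on both arrays. Nerve supply was not measured in these samples.

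The MEF2 pathway was read at its activators, cofactors and targets. Of 23 measured kinases and calcineurin genes, 16 were below 0, with a median of -0.16, and 1 was past 2-fold in each direction. Rcan1, an inhibitor of calcineurin that is also induced by it, was 2.43-fold higher, with 875 in the stimulated and 360 in the control limb. Camk2a, a calcium-dependent kinase, was 2.16-fold lower, with 49.4 in the stimulated and 107 in the control limb and a second probe set at -0.91. Nfatc4 was 1.96-fold higher at low signals of 45.7 in the stimulated and 23.3 in the control limb, and Map2k5 1.37-fold higher. The calcineurin catalytic subunits Ppp3ca and Ppp3cb had ratios of -0.22 and -0.41, with other probe sets at -0.15 for Ppp3ca and at 0.34 and -0.33 for Ppp3cb. Of 20 corepressors and coactivators, 12 were below 0 and 0 passed 2-fold, with a median of -0.08. The MEF2 repressor Hdac5 disagreed with itself, at 0.67 and -0.69 on its probe sets. Smyd1, a muscle methyltransferase, was 1.58-fold lower, the arginine methyltransferase Carm1 1.38-fold lower and the anchoring protein Akap6 at least 1.54-fold lower.

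MEF2 target genes of muscle had a median of -0.23, with 18 of 23 below 0. That median was -0.14 with quantile normalization. It was 0.15 with scaling to the spike-ins, which moved the median gene to 0.39. In all, 3 passed 2-fold upward and 1 downward. The stretch-responsive gene Ankrd1 was 4.07-fold higher, with 1208 in the stimulated and 297 in the control limb and a second probe set at 2.13. Myoz2, a Z-disc protein of slow fibres, was 2.78-fold higher and Xirp1, an actin-binding repeat protein, 2.11-fold higher. Klf4 was 2.12-fold lower, with 189 in the stimulated and 401 in the control limb, and the orphan receptor Nr4a1 had a ratio of -0.80.

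Satellite cell and myoblast markers, which would accompany the early factors, had a median of -0.24 over 14 measured genes, with 9 below 0, 1 past 2-fold upward and 0 downward. The higher one was again Itga7. Ncam1, a surface protein of satellite cells and denervated fibres, was 1.64-fold higher, Cxcr4 1.52-fold higher with other probe sets at 0.06 and 1.06, and Sdc3 at least 1.62-fold lower. With the floor at the 75th percentile the median of this list was 0.10. Met and Hgf, receptor and ligand in satellite cell activation, were below the floor on both arrays. Of 23 proliferation genes, 15 were above 0, 1 passed 2-fold upward, Mki67 (2.21-fold, 82.1 in the stimulated and 37.2 in the control limb), and 0 downward, with a median of 0.13. The replication licensing genes Mcm3 and Mcm4 were 1.65-fold and 1.55-fold higher and Bub1b, a spindle checkpoint kinase, at least 1.56-fold higher, while the mitotic genes Top2a, Ccnb2 and Cdk1 had ratios of -0.09, -0.07 and -0.13.

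Across 9 other ways of processing the same arrays, Myog and Myf6 were above 0 in all 9, and Mef2d and Id2 below 0 in all 9. Id1 and Id3 were below 0 in the 8 that gave them a value. Some alternatives could not alter these values. Myog and Myf6 each had 1 unsuffixed probe set, above every floor used. Both floors, the median over probe sets and leaving out suffixed probe sets therefore returned their main value. For Id1 and Id3, both floors and the median over probe sets did so. For Mef2d and Id2, both floors and leaving out suffixed probe sets did so. Agreement in those alternatives was fixed in advance. A pseudocount also cannot reverse the sign of a probe set's ratio. Scaling to the median gene or to the spike-ins shifts every member alike. Myog ranged between 0.93 and 1.38 on the log2 scale, Id1 between -1.77 and -1.37 and Id3 between -1.23 and -0.82. Myod1, Mef2a and Mef2c changed sign among the alternatives, as values close to 0 can.

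**Figure D5:**
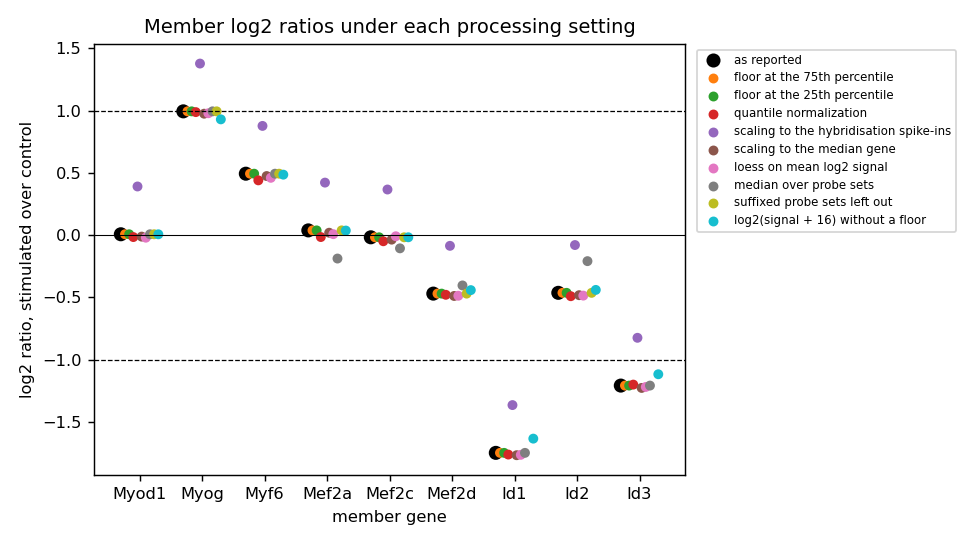
Log2 ratio of stimulated over control for each of the 9 member genes as reported (large black point) and under 9 other settings (small points), with 2-fold as dashed lines. Scaling to the spike-ins lifts every gene by about the same amount, and Myog, Myf6, Mef2d, Id1, Id2 and Id3 keep their sign under every setting that gives a value.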

How the data were processed

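Total RNA from 1 stimulated and 1 control muscle sample was labelled with biotin and hybridised to 1 array each, per the labels' protocols. The deposited values are linear signal intensity per probe set, which the authors computed in MAS5 (submitters' processing notes). For its version and scaling target: not given in the sources used here. Of 31099 probe sets, 57 controls were left out. Genes were named through the platform annotation (20826 probe sets with 1 symbol, 436 with several), and all 9 members matched the RefSeq gene table by gene identifier.

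Signals kept the authors' scaling. Values below the floor were raised to it before log2 ratios (stimulated over control) were formed, and the brightest measured probe set by mean log2 signal stood for its gene. Where 1 array was below the floor, the fold is a bound, written "at least". With 1 array per group, which limits the precision of every value, no test was made. The counting was tested on simulated data. Calculations used Python 3.11.15, numpy 2.4.6, pandas 2.3.3 and statsmodels 0.14.6.

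The members and the 20 gene lists were chosen with earlier results of these data known. All members were named, and in each list up to 4 measured genes with the largest absolute ratio, fewer in lists of other cell types. Other genes were picked once values were known. The closing section gives 9 alternatives.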

Additional observations from a re-analysis of the deposited data

How the results depend on the processing

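Each alternative changed 1 choice, except that the pseudocount replaced the floor and so kept all 14217 genes. Scaling to the hybridisation spike-ins gave 1 member past 2-fold upward (Myog) and 1 downward (Id1), with 2 past 1.5-fold upward (Myog and Myf6). Over all genes it gave 535 higher and 44 lower at 2-fold, and at 1.5-fold 2822 higher and 181 lower, because it moved the median gene to 0.39. Relative to the median gene of each setting, Myog lay between 0.93 and 1.0, Id1 between -1.80 and -1.64 and Id3 between -1.25 and -1.12. Leaving out probe sets with a suffix removed Id1 and Id3, so 0 members were lower by 2-fold and 0 by 1.5-fold. A floor at the 75th percentile counted 52 genes higher and 49 lower at 2-fold, and 271 higher and 199 lower at 1.5-fold, over fewer genes. A floor at the 25th percentile counted 474 higher and 596 lower at 2-fold, and 1328 higher and 1622 lower at 1.5-fold. The member counts were the same under both floors, quantile normalization, median-gene scaling, loess, the median over probe sets and the pseudocount. The lymphocyte and neutrophil medians had no value at the 75th-percentile floor. The counts as reported were 142 higher and 142 lower at 2-fold and 656 higher and 691 lower at 1.5-fold. No paired analysis was possible because each group has 1 array. Low signals limit the genes near the floor, and the member probe sets standing for a gene lay at least 6.65 times above it.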
